A study of Mus musculus with 24 samples.

Results

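Liver and serum were set against each other in male C57BL/6NJcl mice fed a diet that produces non-alcoholic steatohepatitis (NASH). The comparison took the 6 liver arrays and the 6 serum arrays of the diet group, 12 of the 24 arrays of the series, and was made on the composition of each array. The share of a miRNA is its total signal as a percentage of the summed signal of all miRNAs detected on that array. The question was how liver-like the serum profile is on the diet at weeks 1, 2 and 6. The mice were bought at 5 weeks of age, kept for 1 week, and then given a choline-deficient high-fat diet with 0.1% methionine, so that they were 7, 8 and 12 weeks old when sampled. Each tissue and week had 2 arrays. The 6 serum arrays of mice of the same ages on CE-2 chow served as a reference. Blood was drawn from the heart. Whether the arrays of a group stand for separate mice or pools is not labelled, and the p-values reflect array-to-array spread that may be technical in part.

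Mature miRNAs are short RNAs that guide Argonaute proteins to messenger RNAs, mainly through the seed near their 5′ end. Liver RNA is rich in miR-122, which hepatocytes make in large amounts, and injured hepatocytes release miR-122 and miR-192 into blood. Serum also holds miRNAs of red cells, platelets, white cells and more distant tissues, some of it in vesicles or bound to protein. A bulk profile cannot tell apart fewer cells of a type and less RNA per cell.

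The miRNAs on which the comparison turned are shown with their mature sequences, 5′ to 3′, from RefSeq on mouse build GRCm38.p6. Capitals mark the seed, bases 2 to 8. The first set holds abundant miRNAs of liver, serum or both, and those with large differences.
miR-6366: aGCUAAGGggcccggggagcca
miR-3963: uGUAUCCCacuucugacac
miR-3968: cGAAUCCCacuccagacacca
miR-5100: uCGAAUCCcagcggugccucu
miR-21a-5p: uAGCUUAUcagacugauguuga
miR-22-3p: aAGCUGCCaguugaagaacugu
miR-451a: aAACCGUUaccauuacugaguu
miR-3473b: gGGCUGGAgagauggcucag
miR-342-3p: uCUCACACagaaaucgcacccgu
miR-223-3p: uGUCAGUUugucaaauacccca
The second set holds hepatocyte-enriched miRNAs, of which miR-192 and miR-194 are made from shared primary transcripts.
miR-192-5p: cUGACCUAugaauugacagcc
miR-194-5p: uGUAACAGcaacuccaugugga
miR-148a-3p: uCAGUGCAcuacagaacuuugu
The third set holds 2 seed families whose members differed widely from each other between the tissues, miR-29 and let-7.
miR-29a-3p: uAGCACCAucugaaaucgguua
miR-29b-3p: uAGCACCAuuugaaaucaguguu
miR-29c-3p: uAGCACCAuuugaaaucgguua
let-7a-5p: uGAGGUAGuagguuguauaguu
let-7b-5p: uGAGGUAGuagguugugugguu
let-7c-5p: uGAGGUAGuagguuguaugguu
let-7d-5p: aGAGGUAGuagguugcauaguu
let-7f-5p: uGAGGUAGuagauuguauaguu
let-7g-5p: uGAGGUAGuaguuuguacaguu
let-7i-5p: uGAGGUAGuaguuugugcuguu
Of the 1881 mouse miRNAs on the array, 1608 matched a mature sequence by name. miR-6366 lies at chr16:18165093-18165114 on the minus strand, miR-3963 at chr3:151023839-151023857 on the minus strand and miR-451a at chr11:78073186-78073207 on the plus strand. The letters AUCCCA, searched in mature sequences as written and chosen after values were seen, occurred in miR-3963, miR-3968 and miR-5100 and in 7 of 1679 mature sequences in all (0.417%).

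Liver arrays detected 337 to 379 miRNAs and serum arrays 313 to 399. The means were 354.5 ± 18.6 (SD, n = 6) and 347.7 ± 37.9 (SD, n = 6), and the 2 tissues were not distinguished by this number (exact permutation of tissue within weeks, two-sided p = 0.676). Of 546 miRNAs detected on any of the 12 arrays, 309 were detected in both tissues, 106 in liver alone and 131 in serum alone. The 190 detected on all 12 arrays held 97.4% to 98.2% of the liver signal and 93.5% to 95.7% of the serum signal. RNA input was 100 ng for liver and 2.5 ng for serum, so detection in serum was made on less RNA. Serum weeks 1 and 2 lay on one slide, serum week 6 and liver week 1 on the next, and liver weeks 2 and 6 on the third. Tissue and slide therefore overlapped in most of the comparison, and only 1 of the 3 slides held both tissues on the diet.

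The serum profile on the diet shared 41.2% to 46.0% of its composition with liver. The shared composition is the sum, over detected miRNAs, of the smaller of the liver and the serum share; identical profiles give the whole. Over the 4 liver and serum pairs of a week it averaged 41.2% at week 1 (39.4% to 42.9%), 46.0% at week 2 (43.6% to 48.7%) and 45.3% at week 6 (44.5% to 46.0%). The pair of liver arrays of a week shared 93.9%, 93.4% and 89.8%, and the pair of serum arrays shared 80.6%, 80.7% and 83.7%. Liver and serum were thus further apart than arrays of one tissue and week in every pair. The ranges of weeks 2 and 6 overlapped, whereas every week 1 pair lay below every pair of those weeks. Without miR-122-5p the means of weeks 2 and 6 fell to 42.7% and 41.0%. The week 1 mean then moved by less than the SD of its 2 serum arrays, so the lower place of week 1 was less marked. With 2 serum arrays a week, an exact permutation over the 3 weeks cannot go below p = 0.0667, so the weeks were not tested.

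Ranks gave another order of the weeks. Spearman's rho across the 190 miRNAs, a description over miRNAs that share the same arrays, averaged 0.594 at week 1 (0.534 to 0.656), 0.643 at week 2 (0.594 to 0.690) and 0.553 at week 6 (0.516 to 0.587). Pearson's r of log2 shares was 0.627, 0.671 and 0.598. Between arrays of one tissue, over all weeks, rho was 0.956 to 0.993 in liver and 0.882 to 0.973 in serum, against 0.473 to 0.706 for the 36 liver and serum pairs. When each liver week was set against each serum week, serum of week 6 had the lowest mean rho with every liver week, 0.499, 0.560 and 0.553 for liver of weeks 1, 2 and 6. The value of 0.499 belonged to liver week 1 and serum week 6, which shared a slide. Week and slide cannot be told apart for serum week 6.

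A few abundant miRNAs carried the overlap. From the mean profiles, the shared composition was 45.2%, of which miR-3963 gave 9.03 percentage points, miR-122-5p 8.54, miR-21a-5p 2.89, miR-5100 2.40, miR-29a-3p 1.76, miR-22-3p 1.75 and miR-192-5p 1.21. The 10 largest shares of liver and the 10 largest of serum had 6 members in common (miR-122-5p, miR-21a-5p, miR-22-3p, miR-29a-3p, miR-3963 and miR-5100), and 32 of the 50 largest were in both lists. With chow serum in place of NASH serum, 3 of 10 and 30 of 50 were in common. miR-122-5p then gave 0.634 percentage points, miR-21a-5p 1.00 and miR-192-5p 0.171.

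Serum of NASH mice was nearer to NASH liver than serum of chow mice in shared composition. Against the mean liver profile of its week, each NASH serum array shared 40.4% to 48.3% (44.4 ± 2.90, SD, n = 6) and each chow serum array 31.9% to 35.9% (34.2 ± 1.82, SD, n = 6). The groups did not overlap, and the difference was 10.2 percentage points (exact permutation of diet within weeks, two-sided p = 0.00926, the smallest this design can give). By week the NASH means were 41.2%, 46.1% and 45.9% and the chow means 31.9%, 34.7% and 35.9%. With the 13 hepatocyte-enriched miRNAs left out, an alternative chosen after seeing the data, the values were 41.5 ± 2.18 and 39.2 ± 1.37 (SD, n = 6 each), a difference of 2.30 points (exact permutation p = 0.0926). Without miR-122-5p alone the difference was 3.48 points (exact permutation p = 0.00926, n = 6 each).

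The rank correlation did not separate the diets. Over the 152 miRNAs detected on all 18 arrays of NASH liver and both serum groups, rho with NASH liver was 0.576 ± 0.0641 (SD, n = 6) for NASH serum and 0.544 ± 0.0680 (SD, n = 6) for chow serum. The difference was 0.032 (exact permutation p = 0.472). It was -0.00556 when all detected miRNAs entered with a floor. With the chow liver as the reference of chow serum the difference was 0.131 (exact permutation p = 0.037, n = 6 each). That value compares each serum with its own liver and so asks another question. It was also taken over another set, the miRNAs detected on all 24 arrays of the series. At week 6 both chow arrays, 0.577 and 0.655, lay above both NASH arrays, 0.509 and 0.555, unlike the shared composition of that week.

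The total signal of the NASH serum arrays moved with week. It was 56469 and 79092 at week 1 and between 25836 and 32539 at weeks 2 and 6. The log2 ratio of miR-451a to miR-23a-3p, an index of red cell RNA in serum, was 2.66 and 3.92 at week 1, 1.69 and 2.69 at week 2, and 0.21 and 0.07 at week 6. The part of red cell RNA and of total signal in the order of weeks was not tested. With miR-451a left out, the diet difference in shared composition was 11.2 percentage points (46.6 against 35.5; exact permutation p = 0.00926, n = 6 each).

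**Figure D1:**
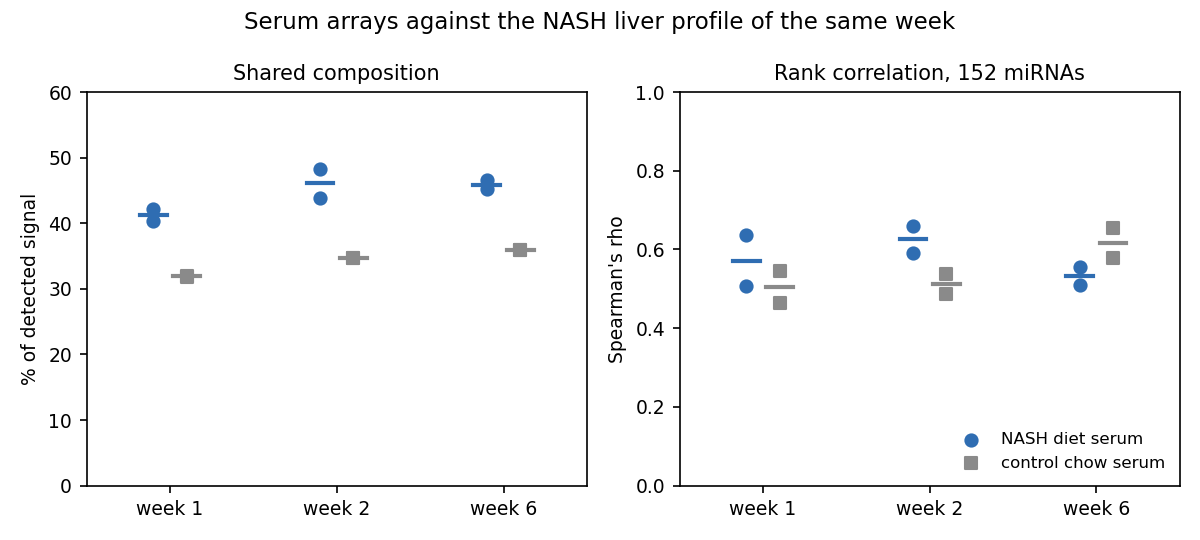
Likeness of each serum array to the mean NASH liver profile of the same week, as shared composition in percent of the detected signal (left) and as Spearman's rho over 152 miRNAs (right). Points are arrays, bars are means of 2 arrays, circles are NASH serum and squares chow serum. In shared composition all NASH arrays (40.4% to 48.3%) sit above all chow arrays (31.9% to 35.9%); in rank correlation the diets overlap, and at week 6 the chow arrays are higher.

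The tissue difference per miRNA was tested with limma on log2 shares of the 190 miRNAs detected on all 12 arrays, with groups for tissue and week. Differences are liver minus serum, in log2 units of share, averaged over the 3 weeks unless a week is named. Of 190 miRNAs, 165 (86.8%) passed an adjusted p of 0.05 (Benjamini-Hochberg over all 190), 46 higher in liver (24.2%) and 119 higher in serum (62.6%). The median difference over all 190 was -1.04, and it was -0.64 with miR-6366 left out of the shares. With each array centred on its median 72 were higher in liver and 87 in serum, with quantile normalization 71 and 83, and over the 131 miRNAs numbered below 1000 alone 45 and 61. Weeks 1, 2 and 6 taken singly had 147 (77.4%), 144 (75.8%) and 144 (75.8%) that passed, and the median difference was -1.19, -0.97 and -0.84. Shares of 127 of the 190 (66.8%) did not overlap between the 6 liver and the 6 serum arrays.

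Since so large a part of the profile passed, the sizes below carry more than the calls. Under 8 other scalings, background corrections or probe summaries, 127 of the 165 that passed kept their sign under each of them, 40 of 46 higher in liver and 87 of 119 higher in serum. Among the 46 named here that passed, many of them chosen for the size of their difference, 43 kept it. The exceptions were miR-29a-3p and miR-5100, whose differences were 0.11 and 0.13 with each array centred on its median, and miR-193a-5p, at 0.21 with quantile normalization. The order of shares within an array also depends on how well each probe and label works, so shares are compared between tissues for the same miRNA.

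**Figure D2:**
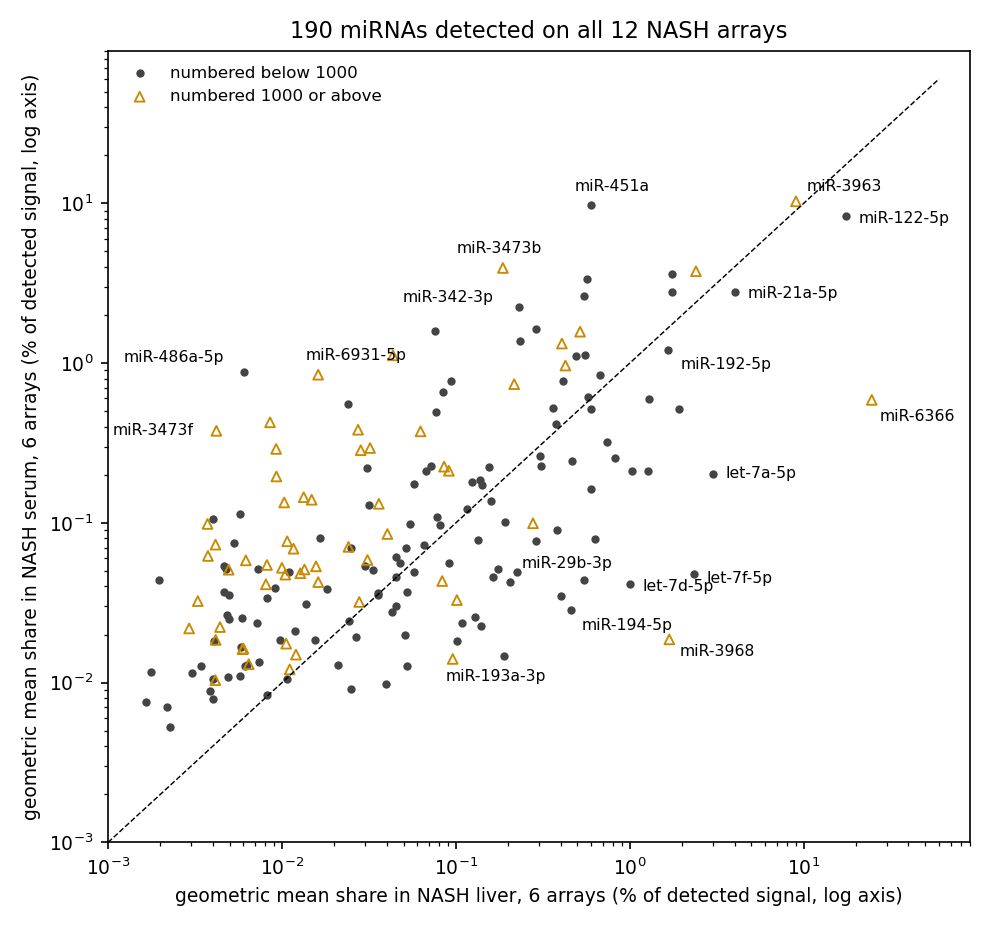
Geometric mean share of each of 190 miRNAs in NASH liver (horizontal) and NASH serum (vertical), in percent of detected signal on log axes, with 6 arrays behind each mean and the dashed line at equal shares. Circles are miRNAs numbered below 1000 and triangles those numbered 1000 or above. Most points lie above the line (119 passed as higher in serum, 46 as higher in liver), while miR-6366, miR-3968 and let-7f-5p lie far below it and miR-486a-5p and miR-3473f far above.

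miR-6366 was the largest signal of NASH liver and a minor one in serum. Its share was 20.1% to 29.0% in liver (median 24.5%) and 0.475% to 0.819% in serum (median 0.569%). No serum array came near any liver array, and the difference was 5.39 (SE 0.16, limma adjusted p = 7.92e-13). In chow serum the share was 0.569% to 1.52%. miR-3968 showed the widest gap toward liver, with 1.55% to 1.83% (median 1.69%) in liver and 0.0147% to 0.0271% (median 0.0175%) in serum (6.50, SE 0.18, limma adjusted p = 3.60e-13). Both are high-numbered miRNAs whose function is little described.

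miR-3963 and miR-5100 contain the same 6 letters as miR-3968 yet stood high in both tissues. miR-3963 held 8.42% to 9.84% of liver (mean 9.03%) and 6.51% to 14.9% of serum (mean 10.6%). The groups overlapped and the difference did not pass (-0.19, SE 0.19, limma adjusted p = 0.363). miR-5100 held 2.26% to 2.52% of liver (median 2.40%) and 3.05% to 4.80% of serum (median 3.71%). Within an array, the log2 ratio of miR-3963 to miR-3968 was 2.25 to 2.53 in liver and 8.49 to 9.74 in serum, a 103-fold gap that multiplying an array by a factor leaves as it is. That pair and the other pairs below were chosen after values were seen and carry no test.

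Hepatocyte-enriched miRNAs held 20.99% ± 2.91 of liver signal (SD, n = 6; 17.0% to 24.6%) and 10.2% ± 2.46 of NASH serum signal (SD, n = 6; 7.64% to 14.1%). The tissues did not overlap (difference 10.8 percentage points, exact permutation p = 0.00926, adjusted over 13 array measures 0.0120). In chow serum the list held 0.961% ± 0.521 (SD, n = 6), and NASH serum exceeded it by 9.24 points (exact permutation p = 0.00926, adjusted 0.0201). By week the list held 24.3%, 20.7% and 18.002% of liver and 7.92%, 11.1% and 11.6% of NASH serum. The serum share as a percentage of the liver share was 32.6% at week 1, 53.6% at week 2 and 64.4% at week 6. The sum followed its largest member, miR-122-5p, at 31.7%, 54.0% and 64.7%. miR-194-5p was at 7.52%, 10.6% and 3.69% and miR-122-3p at 65.5%, 98.9% and 58.9%, both lower at week 6 than at week 1. The other tested members were higher at week 6 than at week 1. None of the 9 tested members passed the test of a difference between weeks, so the narrowing of the list is a description of 2 arrays a week.

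Of the 13 listed miRNAs, 9 were detected on all 12 arrays. Among these 9, 6 were higher in liver, 1 was higher in serum and 2 did not pass; the median difference was 0.78, against -1.04 over all 190. The list mixes miRNAs that held similar shares in both tissues with others that were scarce in serum.

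miR-122-5p, the dominant miRNA of hepatocytes, held 14.8% to 20.4% of liver (median 17.5%) and 6.03% to 12.1% of NASH serum (median 8.15%). In chow serum it held 0.153% to 1.29%. Liver arrays were all above NASH serum arrays, and these were all above chow serum arrays. The difference between liver and NASH serum was 1.07 (SE 0.17, limma adjusted p = 2.55e-05), which is 1.66, 0.89 and 0.66 at weeks 1, 2 and 6 (between weeks adjusted p = 0.365). By mean share it had rank 2 in liver and rank 3 in NASH serum. Its passenger arm, miR-122-3p, was detected on all 12 NASH arrays and on 0 of 6 chow serum arrays, with 0.0320% to 0.0755% in liver and 0.0175% to 0.0609% in NASH serum (0.50, SE 0.24, limma adjusted p = 0.0594). The arrays of the tissues overlapped. That p fell below the threshold without any 1 of 5 arrays, replicate 1 of liver weeks 2 and 6, replicate 1 of serum weeks 1 and 2 or replicate 2 of serum week 6 (differences 0.58, 0.62, 0.59, 0.66 and 0.65).

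miR-192-5p, which is also released from injured hepatocytes, had similar shares in both tissues by week 6. It held 1.01% to 2.55% of liver (median 1.67%) and 1.10% to 1.495% of NASH serum (median 1.16%), with overlapping arrays. The difference was 0.47 (SE 0.18, limma adjusted p = 0.0237), and it was 1.02 at week 1, 0.40 at week 2 and -0.01 at week 6. It did not pass without replicate 1 of liver week 1 (0.44), replicate 2 of liver week 2 (0.40), replicate 2 of liver week 6 (0.36) or replicate 1 of serum week 6 (0.39), nor with the slide as a block (0.61, adjusted p = 0.334). Its other arm, miR-192-3p, was at -0.02 (SE 0.19, limma adjusted p = 0.925).

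miR-194-5p, made from the same transcripts as miR-192, behaved otherwise. It held 0.343% to 0.584% of liver (median 0.453%) and 0.00841% to 0.0679% of NASH serum (median 0.0319%). No arrays overlapped, and the difference was 4.001 (SE 0.25, limma adjusted p = 1.33e-09). Within an array, the log2 ratio of miR-192-5p to miR-194-5p was 1.55 to 2.13 in liver and 4.01 to 7.03 in serum. The ratio of miR-122-5p to miR-194-5p was 5.05 to 5.43 in liver and 6.99 to 9.83 in serum. The ratio of miR-122-5p to miR-192-5p overlapped, with 2.92 to 3.87 in liver and 2.28 to 3.14 in serum.

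The arms of miR-193a went in opposite directions in the main setting. miR-193a-3p held 0.152% to 0.234% of liver and 0.0125% to 0.0182% of serum, without overlap (3.70, SE 0.16, limma adjusted p = 6.47e-11). miR-193a-5p held 0.00166% to 0.00284% of liver and 0.00173% to 0.0109% of serum (-1.21, SE 0.33, limma adjusted p = 0.00342; -1.19 and adjusted p = 0.312 with the slide as a block). Both arms were below 1% of either profile. The liver shares of miR-193a-5p lay near or below 0.00282%, the floor used elsewhere for undetected arrays. Its arrays overlapped between the tissues, and its sign turned with quantile normalization. miR-193a-5p was not detected in chow serum, and miR-193a-3p was detected on 1 of its 6 arrays.

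miR-148a-3p, abundant in hepatocytes, held 0.558% to 1.03% of liver and 0.154% to 0.352% of NASH serum (1.68, SE 0.21, limma adjusted p = 2.54e-06). Its chow serum arrays, 0.0334% to 0.146%, lay below all NASH serum arrays. miR-365-3p held 0.123% to 0.149% of liver and 0.0525% to 0.106% of serum (0.78, SE 0.16, limma adjusted p = 0.000284; 0.98 and adjusted p = 0.0756 with the slide as a block). miR-802-5p was detected on all 6 liver arrays at 0.00969% to 0.0188% and on 0 serum arrays. Its liver share was 6.00-fold the mean of the smallest shares detected on the serum arrays, which is not a strict bound. miR-455-3p was detected on 6 liver arrays and 1 NASH serum array, and miR-455-5p on 4 and 0.

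**Figure D3:**
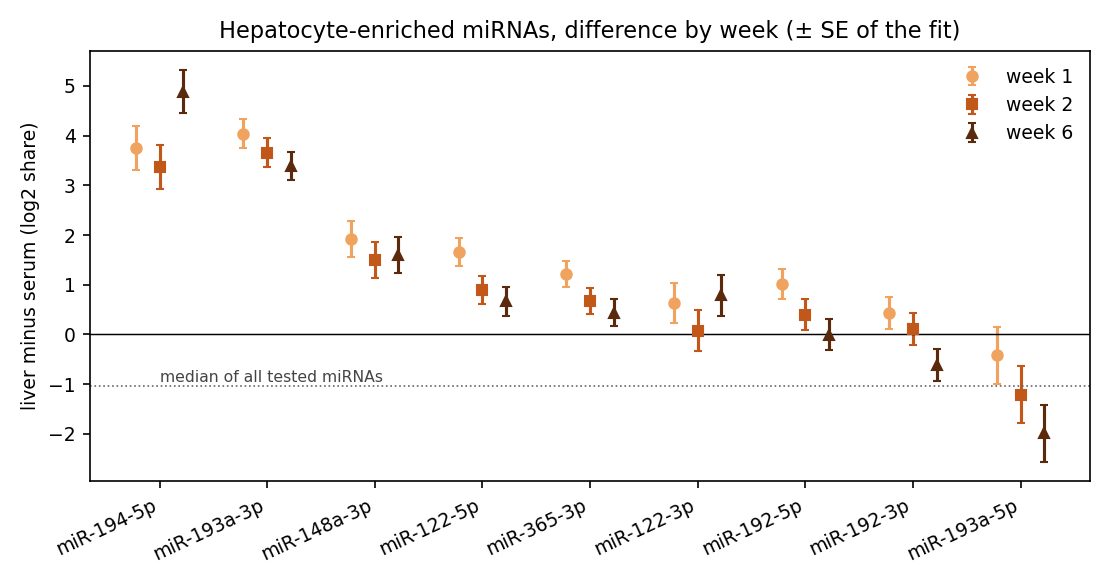
Liver minus serum difference in log2 share of the 9 hepatocyte-enriched miRNAs detected on all 12 arrays, by week, with the SE of the fit (2 arrays for each tissue and week). The solid line marks equal shares and the dotted line the median of all 190 miRNAs (-1.04). miR-194-5p lies at 3.75, 3.37 and 4.88 at weeks 1, 2 and 6, and miR-193a-3p at 4.04, 3.66 and 3.39. miR-122-5p goes from 1.66 to 0.66 and miR-192-5p from 1.02 to -0.01.

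The let-7 family, which restrains growth genes such as Lin28 and Hmga2, was another large block of liver signal and a small one of serum. Its 9 listed members held 11.3% ± 0.582 of liver (SD, n = 6; 10.3% to 11.9%) and 2.00% ± 0.684 of serum (SD, n = 6; 1.13% to 3.15%), without overlap (exact permutation p = 0.00926, adjusted 0.0120). All 7 members detected on every array were higher in liver, against 24.2% of all 190, and each kept that sign under the 8 other settings. The median of the 7 was 2.28. let-7e-5p and miR-98-5p were detected on 6 liver arrays and 1 serum array each.

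Members of near-identical sequence differed in size of the gap. let-7f-5p held 1.92% to 2.83% of liver (median 2.41%) and 0.0216% to 0.0965% of serum (median 0.0468%), a difference of 5.61 (SE 0.31, limma adjusted p = 3.46e-10). let-7a-5p, which has G12A in let-7f-5p (positions counted from 1 at the 5′ end, the base of let-7a-5p first), held 2.56% to 3.44% of liver and 0.0911% to 0.408% of serum (3.88, SE 0.26). let-7c-5p, with A19G, was at 1.90 (SE 0.24), and let-7b-5p, with A17G and A19G, at 1.12 (SE 0.16). No liver array overlapped a serum array for these 4.

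let-7d-5p, with U1A and U16C, held 0.841% to 1.13% of liver and 0.0192% to 0.0768% of serum (4.60, SE 0.27). let-7g-5p was at 2.28 (SE 0.28). let-7i-5p was at 0.93 (SE 0.21, limma adjusted p = 0.000679), and its serum arrays, up to 0.402%, just reached the lowest liver array, 0.399%. Within an array, the log2 ratio of let-7f-5p to let-7b-5p was 0.35 to 1.28 in liver and -4.41 to -2.63 in serum, a 22.5-fold gap. The ratio of let-7a-5p to let-7c-5p was 0.51 to 0.78 in liver and -1.47 to -1.18 in serum. Members that differ by 1 base can share signal on an array, so the level of each is uncertain.

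**Figure D4:**
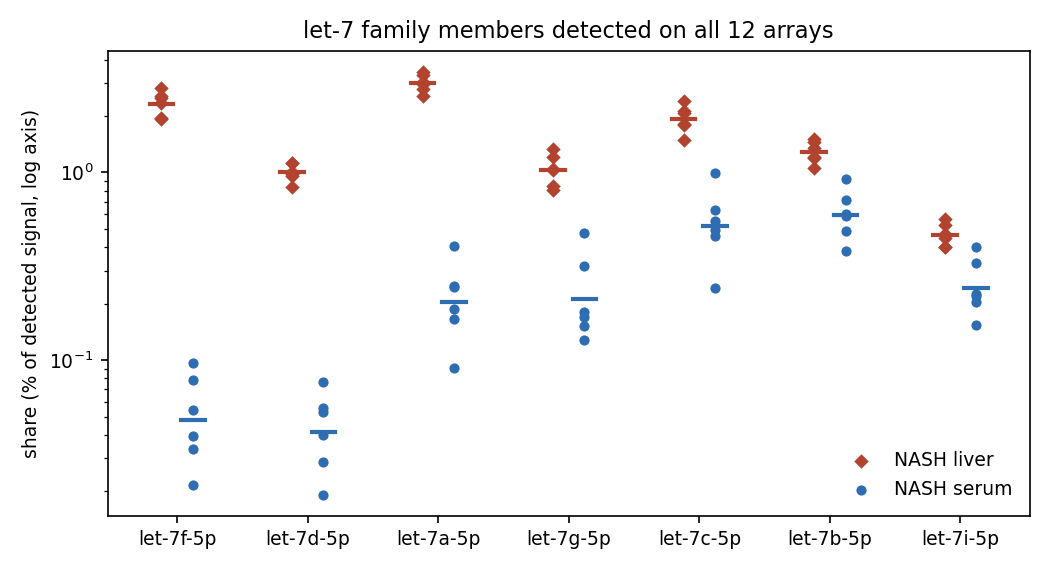
Shares of the 7 let-7 members detected on all 12 arrays, in percent of detected signal on a log axis, with diamonds for the 6 liver arrays, circles for the 6 serum arrays and bars at geometric means. Liver members lie within 0.399% and 3.44%, while serum members spread from 0.0192% for let-7d-5p to 0.997% for let-7c-5p.

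The miR-29 family, which restrains collagen genes, split in the same manner. miR-29b-3p held 0.440% to 0.670% of liver (median 0.536%) and 0.0372% to 0.0640% of serum (median 0.0409%), without overlap (3.64, SE 0.18, limma adjusted p = 1.19e-10). miR-29a-3p held a median of 1.78% of liver (highest 1.96%) and 1.92% to 4.35% of serum, with overlap (-0.67, SE 0.18, limma adjusted p = 0.00326; -0.12 and adjusted p = 0.860 with the slide as a block). miR-29c-3p was at -0.11 (SE 0.18, limma adjusted p = 0.580). The within-array log2 ratio of miR-29b-3p to miR-29a-3p was -2.15 to -1.40 in liver and -6.29 to -5.59 in serum.

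Other seed families also spanned both directions. The 4 members with the seed AGCAGCA ran from -1.17 (miR-16-5p) to 2.31 (miR-497a-5p), and the 3 with AGUGCAA from -2.46 (miR-130b-3p) to 1.22 (miR-130a-3p). The 3 with CAGUGCA, miR-148a-3p, miR-148b-3p and miR-152-3p, were all positive, 0.71 to 1.68. miR-148b-3p and miR-152-3p changed sign under at least 1 of the 8 other settings.

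Base composition differed along with the direction. The median GC content was 40.9% in 43 matched miRNAs that were higher in liver and 58.3% in 99 that were higher in serum. Spearman's rho between GC content and the difference was -0.47 over 164 miRNAs with a sequence, -0.56 over 111 numbered below 1000 and 0.08 over 53 numbered 1000 or above. The points share the 12 arrays and the labelling, and no p is given. Whether base composition had a part in the tissue differences was not tested.

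miR-26a-5p and miR-26b-5p, a seed pair found in many tissues, were higher in liver. miR-26a-5p held 0.619% to 0.687% of liver (median 0.622%) and 0.0255% to 0.138% of serum (median 0.105%), a difference of 2.99 (SE 0.19, limma adjusted p = 1.96e-09). miR-26b-5p differed by 3.53 (SE 0.34). miR-21a-5p, which is raised in many injured tissues, held 2.31% to 5.58% of liver (median 5.08%) and 1.67% to 3.79% of serum (median 2.94%). Its arrays overlapped and it did not pass (0.53, SE 0.24, limma adjusted p = 0.0535). It did pass without replicate 1 of liver week 2 (0.69), replicate 1 of liver week 6 (0.75) or replicate 2 of serum week 2 (0.64), and with each array centred on its median (1.31, adjusted p = 0.000492).

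miR-34a-5p, a target of p53, had like shares in both tissues, 0.171% to 0.647% in liver (median 0.399%) and 0.138% to 0.905% in NASH serum (median 0.474%). The difference was -0.13 (SE 0.21, limma adjusted p = 0.561), and its sign turned under several scalings. Chow serum arrays held 0.0710% to 0.106%, below every NASH array of either tissue. miR-22-3p, abundant in liver and blood cells, leaned to serum, with 1.58% to 1.83% in liver and 2.65% to 5.03% in serum (-1.05, SE 0.19, limma adjusted p = 0.000135; -1.04 and adjusted p = 0.126 with the slide as a block). That value lies close to the median of all 190.

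Red cell miRNAs held a larger part of serum than of liver. The list held 0.670% ± 0.266 of liver (SD, n = 6) and 12.6% of serum (4.15% to 25.4%), without overlap (exact permutation p = 0.00926, adjusted 0.0120, n = 6 each). Its serum means were 19.6%, 12.7% and 5.39% at weeks 1, 2 and 6. At week 6 it lay below the serum means of the hepatocyte-enriched list (11.6%) and the immune cell list (8.01%). miR-451a, made in red cell precursors, held 0.314% to 0.967% of liver (median 0.674%) and 3.55% to 24.6% of serum (median 10.9%). All serum arrays lay above all liver arrays, and the difference was -4.01 (SE 0.25, limma adjusted p = 1.17e-09). miR-451a had the largest arithmetic mean share of NASH serum (11.6%, against 10.6% for miR-3963), while miR-3963 was larger in mean log2 share (3.36 against 3.28). The serum arrays of miR-451a ranged widely: 12.6% and 24.6% at week 1, 9.28% and 14.1% at week 2, and 5.73% and 3.55% at week 6. miR-486a-5p, also of red cells, showed the widest gap toward serum, 0.00372% to 0.00803% of liver against 0.592% to 1.13% of serum (-7.18, SE 0.18, limma adjusted p = 2.37e-13). Of the other listed members, miR-144-3p was detected on 4 liver and 5 serum arrays. Chow serum held 17.1% for the list on average, and the difference between the diets did not pass (exact permutation p = 0.167, n = 6 each).

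Immune cell miRNAs held 0.911% ± 0.176 of liver (SD, n = 6; 0.714% to 1.20%) and 2.61% to 9.41% of serum (mean 4.91%), without overlap (exact permutation p = 0.00926, adjusted 0.0120). Serum means were 2.69%, 4.02% and 8.01% at weeks 1, 2 and 6, and liver means 0.833%, 0.859% and 1.04%. Of 5 tested members, 4 were higher in serum and 1 in liver, with a median of -2.50. Over all 190 miRNAs 62.6% were higher in serum, and the median was -1.04. miR-342-3p, found in lymphocytes and other white cells, held 0.116% to 0.365% of liver (median 0.267%) and 0.762% to 6.55% of serum (median 2.17%). Its difference was -3.29 (SE 0.21, limma adjusted p = 1.92e-09). In serum it held 1.42% and 0.762% at week 1, 2.75% and 1.60% at week 2, and 6.55% and 4.22% at week 6, and in liver it held 0.116% to 0.152%, 0.254% to 0.279% and 0.331% to 0.365%. In both tissues the arrays of a later week were thus above those of the earlier weeks.

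miR-223-3p, of neutrophils, monocytes and platelets, held 0.228% to 0.391% of liver (median 0.287%) and 1.03% to 2.45% of serum (median 1.61%; -2.50, SE 0.20, limma adjusted p = 1.86e-08). miR-150-5p, of mature lymphocytes, differed by -3.42 (SE 0.18). miR-142a-3p, present across blood cell lineages, was the member that went toward liver, with 0.121% to 0.302% of liver and 0.0277% to 0.0583% of serum (2.27, SE 0.24, limma adjusted p = 3.58e-07). Platelet miRNAs as a list did not separate the tissues (1.74% ± 0.349 and 1.96%, exact permutation p = 0.407, n = 6 each), since miR-126a-3p and miR-151-5p were higher in liver by 2.58 (SE 0.22) and 2.63 (SE 0.20) while miR-223-3p was higher in serum.

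Markers of other liver cells were larger parts of the liver profile. The endothelial list held 1.31% ± 0.320 of liver (SD, n = 6) and 0.237% of serum, and the stellate cell and fibroblast list 0.358% ± 0.0921 and 0.137% (exact permutation p = 0.00926 and adjusted 0.0120 for each, n = 6 each). In chow serum the stellate cell list held 0.367%, above all NASH serum arrays and in the range of NASH liver. miR-199a-3p, of stellate cells and fibroblasts, was higher in liver by 1.76 (SE 0.30, limma adjusted p = 5.75e-05), with a lowest liver array of 0.120% and a highest serum array of 0.130%. miR-214-3p, from the same primary transcript, held 0.0172% to 0.0657% of liver and 0.0153% to 0.0528% of serum (-0.04, SE 0.23, limma adjusted p = 0.905). Its difference was -1.16, -0.21 and 1.27 at weeks 1, 2 and 6 (between weeks adjusted p = 0.0795). The epithelial list held 0.163% of liver and 0.0683% of serum, and its member miR-200b-3p differed by 2.02 (SE 0.24). With normexp background correction miR-200b-3p was at 0.10 (limma adjusted p = 0.523). Of the listed members seen on all arrays of a single tissue, miR-31-5p, miR-200c-3p and miR-141-3p were in liver. miR-205-5p was the one in serum, at 0.0141% to 0.0501%.

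Muscle miRNAs belonged to serum. miR-133b-3p held 0.381% to 1.52% of NASH serum (median 0.736%), miR-133a-3p 0.239% to 0.935% and miR-1a-3p 0.0195% to 0.460%. Each was detected on 1 liver array, and the summed list was 0 on the other 5 liver arrays. Chow serum held more of the list, 5.49% on average against 1.64% in NASH serum (exact permutation p = 0.00926, n = 6 each). miR-375-3p, of pancreatic islets, was detected on all 6 serum arrays at 0.0233% to 0.0519% and on 0 liver arrays. The pancreas and neuroendocrine list, which in liver was miR-7a-5p alone, held 0.0187% of liver and 0.0421% of NASH serum (exact permutation p = 0.0185, adjusted 0.0219, n = 6 each), and 0.218% of chow serum.

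**Figure D5:**
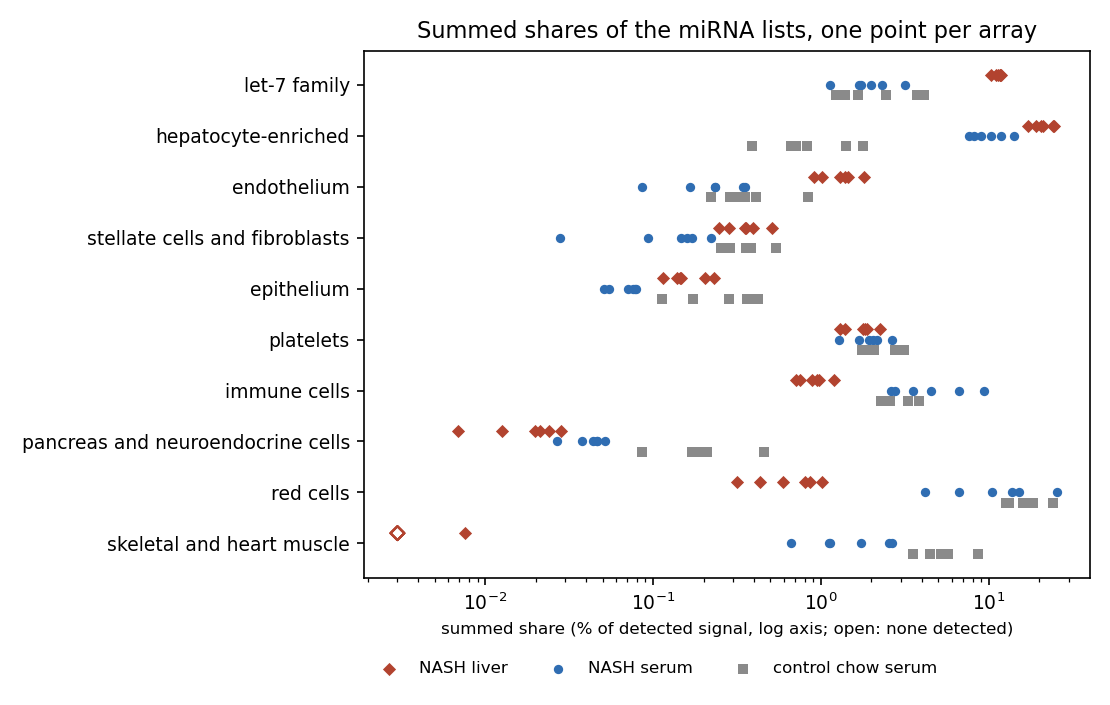
Summed shares of 10 miRNA lists on each NASH liver (diamonds), NASH serum (circles) and chow serum (squares) array, in percent of detected signal on a log axis, with open symbols at the left where no member was detected. Hepatocyte-enriched and let-7 miRNAs lie to the right in liver, red cell and muscle miRNAs in serum. NASH serum (7.64% to 14.1%) lies between chow serum and liver for the hepatocyte list and not for let-7.

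High-numbered miRNAs made up much of both profiles. Those numbered 1000 or above held 41.7% ± 4.33 of liver (SD, n = 6) and 32.9% ± 1.43 of serum (SD, n = 6; exact permutation p = 0.00926, adjusted 0.0120). Without miR-6366 the liver value fell below that of serum by 9.91 percentage points. Of 59 tested, 49 were higher in serum, 6 in liver and 4 did not pass, with a median of -1.92, against 70, 40 and 21 of 131 numbered below 1000 with a median of -0.53. miR-3473b held 0.117% to 0.306% of liver (median 0.173%) and 3.19% to 6.02% of serum (median 3.74%), which gave it rank 4 in serum (-4.40, SE 0.21, limma adjusted p = 1.07e-10). miR-3473f (-6.49, SE 0.32), miR-6931-5p (-5.71, SE 0.25), miR-3082-5p (-5.64, SE 0.26), miR-1187 (-4.97, SE 0.24), miR-3473e (-4.72, SE 0.23) and miR-5128 (-4.68, SE 0.24) showed like gaps. NASH serum arrays of miR-6931-5p, 0.422% to 1.71%, lay above all chow serum arrays, 0.0594% to 0.380%.

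Some lower-numbered miRNAs were also serum-leaning. These were both arms of miR-574 (-4.74, SE 0.21, for the 3p arm and -4.53, SE 0.24, for the 5p arm), miR-671-5p (-4.48, SE 0.24) and miR-709 (-2.56, SE 0.20). miR-709 held 0.354% to 0.844% of liver (median 0.596%) and 2.22% to 4.75% of serum (median 3.47%). miR-23a-3p, used as a stable serum reference in haemolysis indices, was itself at 0.394% to 0.719% of liver and 1.63% to 4.94% of serum (-2.28, SE 0.17, limma adjusted p = 1.26e-08). miR-16-5p, abundant in blood cells, was at -1.17 (SE 0.17; -1.01 and adjusted p = 0.106 with the slide as a block).

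miRNAs seen in one tissue alone held little signal. The 45 detected on all 6 liver arrays and 0 serum arrays held 0.415% to 0.585% of liver, and the 50 detected on all 6 serum arrays and 0 liver arrays held 1.04% to 2.55% of serum. Folds were taken against the geometric mean, over the 6 arrays of the other tissue, of the smallest share detected on each array. Detection is called per miRNA, so an undetected miRNA can lie above that share and these folds are not strict bounds. On this scale miR-467b-3p was 25.4-fold higher in liver, miR-202-3p 15.6-fold, miR-652-5p 15.2-fold, miR-31-5p 14.6-fold and miR-28a-5p 12.7-fold. In the other direction miR-32-3p was 160-fold higher in serum, miR-669l-5p 70.9-fold, miR-6907-5p 69.5-fold and miR-3472 69.1-fold. miR-468-3p held 0.0654% to 0.221% of serum. In a limma fit with a floor for undetected arrays, 379 of 504 miRNAs passed (75.2%). These 10 were among them, but they were chosen by detection in a single tissue, so that outcome was fixed in advance. The mean of the smallest shares was 0.00241% in serum and 0.000842% in liver, and single arrays detected smaller shares than these. The floor, 0.00282%, was above both means, so folds against it would be smaller.

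The overlap of detected miRNAs narrowed with week as a share of liver. Both liver arrays and both serum arrays detected 245 miRNAs at week 1, which is 73.1% of the 335 of liver and 66.6% of the 368 of serum. At week 2 it was 222, 67.7% of liver and 74.0% of serum, and at week 6 it was 203, 61.3% and 69.3%. With chow serum in place of NASH serum the share of NASH liver was also highest at week 1, 67.2%, against 53.0% at week 2 and 54.1% at week 6. The number detected in serum was higher at week 1, when its total signal was also higher, and the part of signal in the overlap was not tested.

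The tissue difference changed between weeks in few miRNAs. Of 190, 3 passed (1.58%; limma, adjusted p below 0.05), and 29 had an unadjusted p below 0.05. miR-483-5p, from an intron of Igf2, held 0.00172% and 0.000805% of liver at week 1, 0.0112% and 0.0102% at week 2, and 0.00609% and 0.00469% at week 6. Its serum share was 0.0332% and 0.0224%, then 0.0260% and 0.0168%, then 0.00959% and 0.0121%. The difference was -4.53, -0.96 and -1.01 (adjusted p = 0.00199). Both liver shares of week 1 lay below 0.00282%, the floor used elsewhere for undetected arrays, and so near the limit of detection. The change from week 1 to week 6 was 3.52 in the main setting. It was smallest with normexp (0.38), the brightest probe (2.08) and the floor (2.26).

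miR-497a-5p, of the miR-16 seed family, moved apart. It held 0.0833% to 0.112% of liver at week 1 and 0.193% to 0.196% at week 6, while serum held 0.0388% to 0.0491% and 0.00964% to 0.0162%. The difference was 1.15, 1.83 and 3.96 (adjusted p = 0.00873). miR-1892 moved together, at -4.09, -2.51 and -1.60 (adjusted p = 0.0188). miR-1892 passed in 13 of 21 other settings, miR-483-5p in 21 of 22 and miR-497a-5p in 19 of 22. miR-1892 did not pass with median centring (adjusted p = 0.0746), nor without replicate 1 (0.120) or 2 (0.0896) of liver week 1, replicate 1 of liver week 6 (0.0697), replicate 1 (0.0791) or 2 (0.0563) of serum week 1 or replicate 2 of serum week 6 (0.0581), each an adjusted p from limma. miR-497a-5p did not pass with median centring (0.0542) or without replicate 2 of serum week 6 (0.0581). None of the 3 passed with normexp background correction (adjusted p = 0.607, 0.350 and 0.502, in the order given). Without replicate 2 of serum week 6 the count was 1, and without replicate 2 of liver week 2 it was 9. Week and slide cannot be told apart within either tissue for liver week 1 and serum week 6.

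The slide that held both tissues gave a direct value, of liver week 1 minus serum week 6. There miR-6366 differed by 4.90 (SE 0.28), miR-3968 by 6.45 (SE 0.31), let-7f-5p by 5.87 (SE 0.54), miR-122-5p by 1.04 (SE 0.29) and miR-194-5p by 5.45 (SE 0.43). In the other direction miR-486a-5p differed by -6.84 (SE 0.32), miR-342-3p by -5.31 (SE 0.37) and miR-451a by -2.34 (SE 0.43). Each lies on the same side as the mean over weeks, though it also holds the difference between the weeks. Of 52 named miRNAs in the fit, 46 kept direction and side of the threshold there, 3 missed it, 2 went past it and 1 turned. miR-34a-5p was among those that went past it (-1.92, SE 0.36). With slide as a block in the fit, 32 of all 190 were higher in liver and 90 in serum, against 46 and 119 in the main setting. The losses thus reached beyond the named miRNAs, of which 7 lost their call (miR-16-5p, miR-192-5p, miR-193a-5p, miR-22-3p, miR-29a-3p, miR-365-3p and miR-5100).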

How the data were processed

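Members and lists were chosen with earlier results of these data known. The deposited files hold spot and miRNA intensity of 1-colour Cy3 arrays with 4415 miRNA probes, per the file headers, extracted with Agilent Feature Extraction 11.5 per the submitters' processing notes; the authors' total signal per miRNA was used as deposited, with no normalization between arrays. Its value is 0.1 where a miRNA was not detected. Shares were computed over detected miRNAs, log2 was taken, and limma 3.58.1 (R 4.3.3) was fitted with lmFit and eBayes to the 190 miRNAs detected on all 12 arrays, with 6 groups of tissue and week. The fit was tested on simulated data. Array measures were compared by two-sided exact permutation within weeks, adjusted over 13 measures. The number of arrays, 2 a group, limits the precision; no spot was saturated. Named miRNAs were the 10 largest shares per tissue and the 10 largest called differences in each direction that kept their sign at every week. To these came up to 5 each way for changes between weeks and the 5 largest seen in each tissue alone. All hepatocyte-enriched miRNAs, up to 4 of each other list and a fixed set of single miRNAs were also named. let-7g-5p, let-7i-5p, other seed family members and within-array pairs were added after their values were seen. Alternatives were the brightest probe, normexp (offset 50, on the median signals), scaling to the 75th percentile, median centring, quantile normalization, a floor, blocks for slide and replicate, and leaving out arrays or abundant miRNAs.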

Additional observations from a re-analysis of the deposited data

Results flagged for a closer look

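Of 156 groups of 6 values tested for a lone array, 10 had 1 that stood apart by Dixon's criterion, and chance gives about 1 in 20. Replicate 1 of liver week 1 was the highest liver array in the summed muscle list (0.00753%, with the other 5 at 0), in miR-141-3p (0.0150%) and in miR-26a-5p (0.687%). Replicate 2 of serum week 6 was the highest serum array in miR-192-5p (1.495%), miR-32-3p (0.277%), miR-468-3p (0.221%) and miR-669l-5p (0.123%). Replicate 1 of serum week 2 was the highest in miR-29b-3p (0.0640%) and miR-3473b (6.02%), and replicate 2 of serum week 1 in miR-200b-3p (0.0145%). The liver minus serum difference changed between weeks in miR-483-5p, by 3.52 from week 1 to week 6 (limma adjusted p = 0.00199 over the 3 weeks), in miR-497a-5p by 2.81 (adjusted p = 0.00873) and in miR-1892 by 2.49 (adjusted p = 0.0188).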

How the results depend on the processing

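The mean over weeks called 165 of 190 miRNAs and between 154 and 172 under the alternatives other than a floor, the slide block (32 and 90 by direction) and miRNAs numbered below 1000 alone; leaving out any 1 array gave 159 to 168. With a floor for undetected arrays 379 of 504 passed over all weeks and 314, 278 and 318 at weeks 1, 2 and 6. Over miRNAs numbered below 1000, 106 of 131 passed over all weeks and 92, 86 and 91 by week. Leaving out 1 array gave 136 to 150, 120 to 146 and 131 to 145 by week. At week 6 normexp split the calls as 32 higher in liver and 129 in serum, against 44 and 100; median centring gave 65 and 74, 58 and 69, and 52 and 85 by week, and quantile normalization 66 and 67, 55 and 62, and 62 and 73. Differences between weeks numbered 3 in the main setting, 5 with the brightest probe, 0 with normexp in limma (20 with an unadjusted p below 0.05), 1 with median centring, 8 with quantile normalization, 48 with the floor, and 1 to 9 when an array was left out; the cause was not tested.

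The deviations of same-numbered liver and serum arrays had a correlation over miRNAs of -0.125 at week 1 and 0.147 at week 2. With 2 arrays a group this rests on a single contrast per tissue and week. It cannot show whether the numbers pair the tissues. With the replicate number as a block, weeks 1 and 2 alone could be paired, 160 miRNAs passed over all weeks and 8 between weeks, and miR-214-3p was at 0.14.

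Over the single miRNAs named, settings other than leaving out an array left direction and side of the threshold as they were in 540 values, made 20 miss the threshold, took 19 past it and turned 31. The 8 miRNAs that turned lay between -1.21 and 0.50 in the main setting. Scaled to the 75th percentile, miR-192-3p was at 0.27, miR-214-3p at 0.26, miR-34a-5p at 0.16 and miR-3963 at 0.11. Centred on the median they were at 0.76, 0.74, 0.65 and 0.59, with miR-29a-3p at 0.11 and miR-5100 at 0.13. Quantile normalization gave 1.59 for miR-192-3p, 1.11 for miR-214-3p, 0.22 for miR-34a-5p and 0.21 for miR-193a-5p. Without miR-122-5p, miR-192-3p was at 0.13, miR-214-3p at 0.11 and miR-34a-5p at 0.018; without miR-6366 they were at 0.38, 0.37 and 0.27, with miR-3963 at 0.21; below number 1000 they were at 0.18, 0.17 and 0.074. normexp gave -0.11 for miR-122-3p and 0.030 for miR-34a-5p, and the brightest probe 0.024 for miR-34a-5p. With slide as a block miR-214-3p was at 0.31 and miR-34a-5p at 0.029, and within the slide of both tissues miR-3963 was at 0.017. Leaving out 1 array moved miR-192-3p over -0.14 to 0.097, miR-214-3p over -0.26 to 0.19 and miR-34a-5p over -0.28 to 0.013.

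Below number 1000 the summed share of the 10 largest differed by -0.018 percentage points and that of platelets by 0.039; without miR-6366 platelets differed by 0.32 and miRNAs numbered 1000 or above by -9.91. Rank correlation below number 1000 was 0.696, 0.716 and 0.614 at weeks 1, 2 and 6, with a floor 0.561 and 0.450 at weeks 2 and 6, and as Pearson's r 0.598 at week 6. Shared composition at weeks 2 and 6 was 49.2% and 49.5% below number 1000, 42.7% and 41.0% without miR-122-5p, and 42.2% and 40.4% without the hepatocyte-enriched list. The diet difference in rank correlation was -0.0056 with a floor and 0.131 with each diet's own liver, and that in shared composition was 2.30 points without the hepatocyte list. Leaving out 1 array kept the diet difference in shared composition at 9.46 to 10.96 points and that in rank correlation at 0.0106 to 0.0534. Exclusions of abundant miRNAs were chosen after seeing the data. Serum carried less labelled RNA, so low serum shares are the less certain.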
